A study of Mus musculus with 18 samples.

Results

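The heat shock factor target chaperones examined here are 10 genes named by symbol: the transcription factor gene *Hsf1*, the HSP70 genes *Hspa1a*, *Hspa1b* and *Hspa8*, the HSP110 gene *Hsph1*, the HSP90 gene *Hsp90aa1*, the J-domain genes *Dnaja1* and *Dnajb1*, the small heat shock protein gene *Hspb1* and the co-chaperone gene *Bag3*. All 10 were found by their Ensembl identifiers among the 22524 genes listed, and 9 of them were among the 13353 genes that passed the filter on low counts and were tested. *Hspa1a* did not pass it. The genes were read together as a response to misfolded protein in the cytosol, a question posed by a ribosome that misreads. The comparison of genotypes does not separate misreading from the lower level of *Rps2* RNA in the mutant mice, which is given below.

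RNA was measured in whole liver of 18 female C57BL/6 mice, all 15 months old, with 1 library per mouse. The 10 A226Y mice carry a heterozygous knock-in of the *Rps2*-A226Y substitution in a protein of the small ribosomal subunit, which lowers the accuracy of decoding. Their mutant allele is silent until a loxP-flanked STOP cassette is removed by Cre under the ubiquitous CMV promoter. The methods state that this excision was partial in every animal, so each A226Y liver is a mosaic that also holds cells with the silenced allele. The 8 WT mice express CMV-Cre and have no targeted *Rps2* allele. The targeted line was made in 129/Sv embryonic stem cells and backcrossed to C57BL/6 before the cross with the Cre mice.

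Cells answer unfolded cytosolic protein through HSF1, a factor that is held inactive by chaperones and, once released, forms trimers on heat shock elements in the promoters of chaperone genes. HSP70 proteins bind exposed hydrophobic stretches of a client, J-domain proteins deliver the clients and start ATP hydrolysis, and HSP110 and BAG proteins exchange the nucleotide. HSP90 takes over clients such as kinases and steroid receptors, and small heat shock proteins hold unfolded proteins without using ATP. In liver, the constitutive HSP70 *Hspa8* is abundant at rest, whereas *Hspa1a* and *Hspa1b* are the forms that stress induces.

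Of the 9 tested genes, only *Hspb1* was higher in A226Y liver at an adjusted p-value under 0.05 (edgeR quasi-likelihood test, Benjamini-Hochberg adjustment over all tested genes), and it rose 1.90-fold. Over all genes tested, 7.27% were called higher and 7.03% lower. None of the 9 was called lower, and DESeq2 and limma-voom also called *Hspb1* alone among them. At an unadjusted p under 0.05, 2 of the 9 were higher, *Hspb1* and *Hsp90aa1*, and 0 were lower, beside 14.9% of all genes higher. The log2 fold change was above 0 for 6 of the 9, with a median of 0.12, against -0.004 over all genes. In none of the 9 did all A226Y mice lie on one side of all WT mice, a separation that 0.637% of tested genes had in one or the other direction.

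**Figure D1:**
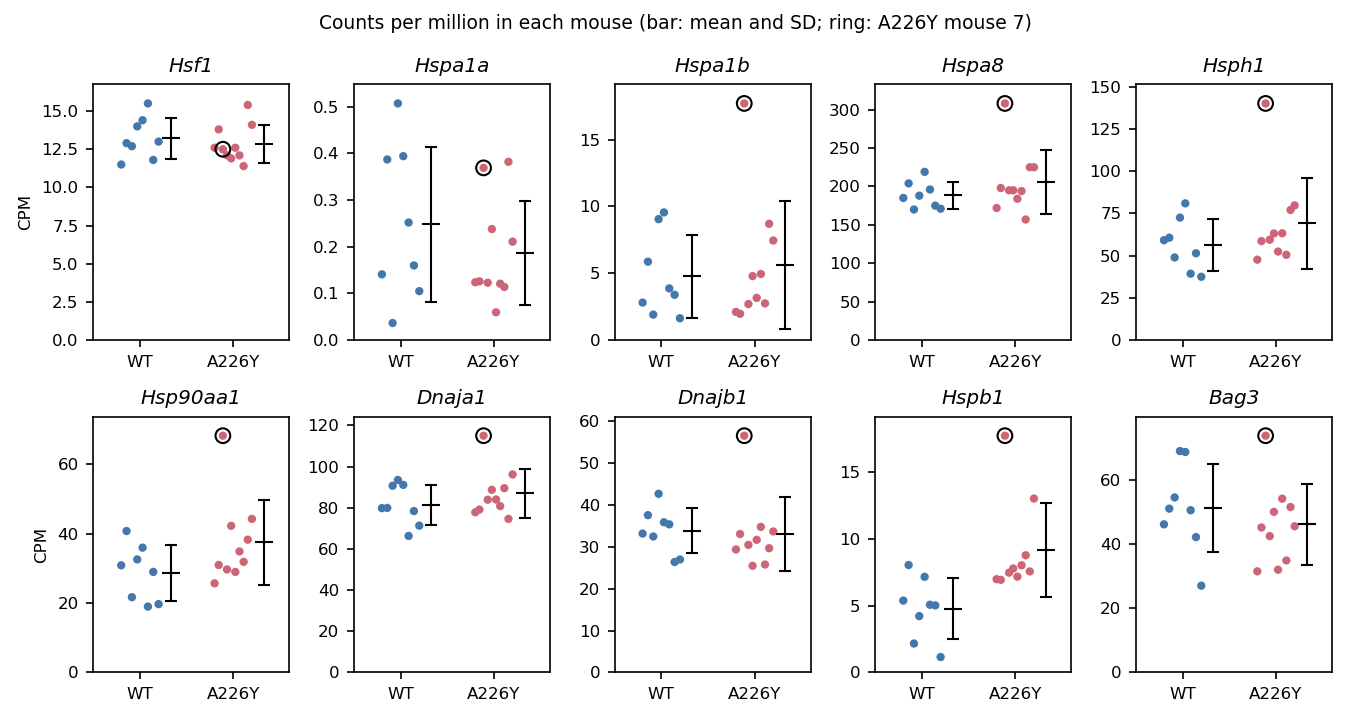
CPM (counts relative to the TMM-scaled library size, vertical axes from 0) of the 10 genes in each of 8 WT and 10 A226Y mice, with the mean and SD of each group and a ring around A226Y mouse 7. The groups overlap in every panel; *Hspb1* has the largest fold change (1.90), and the ringed mouse is the highest of all 18 for 8 genes, among them *Hsph1* at 140 CPM.

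Because HSF1 acts through its promoter element, the promoters of the set were searched in windows of 250 bases before each RefSeq transcript start on GRCm38.p6. Windows were found for 7 of the 10 genes (11 windows). *Hsf1*, *Hspa8* and *Hsp90aa1* had no entry in the table used. A heat shock element is built of inverted GAA units, and it was searched on both strands as the 2-unit forms GAANNTTC and TTCNNGAA, which read the same on both strands, and as the 3-unit form GAANNTTCNNGAA, which contains both. A 2-unit form was present for 5 of the genes, *Hspa1a*, *Hspa1b*, *Hspb1*, *Hsph1* and *Dnaja1*, and in 12.8% of the 32851 windows of all genes. The first value counts genes, some with several windows, and the second single windows, so they are not alike. The windows of *Hspa1a* and *Hspa1b* differ at only 3 of 250 bases, and the 2 windows of *Hsph1* hold the same site. The 3-unit form was in no window of the set and in 0.466% of all windows. No match was found for *Dnajb1* and *Bag3* within these bases. The promoters shown are those of the gene that changed and of the closely related stress-inducible pair, each as the 130 bases before the start, read 5′ to 3′ on the strand of the gene, with 2-unit matches in capitals:

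Hspb1, chr5:135887789-135887918, plus strand: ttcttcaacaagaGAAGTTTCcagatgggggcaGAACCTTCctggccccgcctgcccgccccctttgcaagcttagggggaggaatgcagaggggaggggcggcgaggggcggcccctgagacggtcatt

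Hspa1a, chr17:34972157-34972286, minus strand: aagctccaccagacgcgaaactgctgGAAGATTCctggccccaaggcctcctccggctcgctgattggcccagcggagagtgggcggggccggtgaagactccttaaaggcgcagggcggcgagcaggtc

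Hspa1b, chr17:34959239-34959368, minus strand: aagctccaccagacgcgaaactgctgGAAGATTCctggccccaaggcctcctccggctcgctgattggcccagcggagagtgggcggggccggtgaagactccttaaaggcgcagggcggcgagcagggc

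*Hspb1* had 2 such matches, from -117 to -110 and from -97 to -90 of its start. *Hspa1a* and *Hspa1b* had the same 8 letters at the same place, from -104 to -97. *Hsph1* had TTCTCGAA from -33 to -26, and *Dnaja1* had GAAAATTC from -124 to -117, both relative to their first RefSeq start and both inside the span that GENCODE gives to the gene. A match describes letters only and was not read as a bound site.

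*Hspb1* (ENSMUSG00000004951, chromosome 5, 135887919 to 135889563, plus strand of GRCm38) encodes HSP25, the mouse counterpart of human HSP27, a small heat shock protein that also binds actin. Its level in the 10 A226Y mice ran from 6.92 CPM through a median of 7.66 to 17.7, and in the 8 WT mice from 1.15 through 5.04 to 8.03. All 10 A226Y values exceeded the mean of the WT group, 3 were above the highest WT mouse, and 6 of the 8 WT mice were below the lowest A226Y mouse. The A226Y values were close together except in mice 7 and 32, at 17.7 and 13 CPM, while WT mice 33 and 13 were lowest at 1.15 and 2.16. Means were 9.13 ± 3.49 CPM (SD, n = 10) and 4.77 ± 2.3 CPM (SD, n = 8). The log2 fold change was 0.93 with a standard error of 0.28 and a 95% interval from 0.38 to 1.48 (edgeR quasi-likelihood test, adjusted p = 0.0316). A two-sided exact permutation test of log2 CPM, which took every one of the 43758 ways to divide the mice, gave p = 0.000571, which was 0.0136 after adjustment over all tested genes.

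The *Hspb1* call lay near the threshold: it held in 13 of the 18 fits that left out 1 mouse, among them that without WT mouse 33, the mouse of lowest *Hspb1* (0.78, edgeR adjusted p = 0.0331), and was lost in 5. Without A226Y mouse 7 its log2 fold change was 0.77 and the edgeR adjusted p 0.0616, and without WT mouse 13 these were 0.82 and 0.0602. Leaving out WT mouse 14, WT mouse 24 or A226Y mouse 32 gave 0.91, 0.94 and 0.86, with edgeR adjusted p-values of 0.0598, 0.0527 and 0.0567. With 3 surrogate variables as covariates, the log2 fold change of *Hspb1* was 0.46 with a standard error of 0.23 (edgeR adjusted p = 0.226). The direction was the same in each of these fits.

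Marker RNA of other liver cells was compared with *Hspb1* within each genotype. The summed level of 9 lymphocyte markers was 734 CPM in WT mouse 33 and 384 CPM in WT mouse 13, which had the lowest *Hspb1*, against 55.3 to 169 CPM in the other WT mice. It ran from 53.5 to 287 CPM in the A226Y mice, with the highest value in mouse 3, whose *Hspb1* was 6.97 CPM. Across the 8 WT mice, *Hspb1* and the lymphocyte sum had a Pearson r of -0.96 (Spearman rho -0.90; -0.67 without the 2 mice farthest from the median sum), and across the 10 A226Y mice r was -0.14 (rho -0.21; 0.43 without 2). The immunoglobulin genes *Ighm* and *Jchain* made up 83.5% to 97.2% of this sum in every mouse. The other 7 markers, split off after seeing the data, summed to 20.7 CPM in WT mouse 33 and 14.4 CPM in WT mouse 13, against 5.28 to 8.46 CPM in the other WT mice and 4.5 to 14.5 CPM in the A226Y mice. Their sum had r = -0.96 with *Hspb1* in the WT mice (rho -0.83; -0.54 without 2) and -0.59 in the A226Y mice (rho -0.78; -0.63 without 2). *Hspb1* and the cholangiocyte marker sum had r = -0.76 in the A226Y mice (rho -0.41, and -0.72 without 2) and -0.18 in the WT mice (rho -0.33, and -0.18 without 2). For the second surrogate variable, r was 0.91 in the WT mice (rho 0.79, and 0.61 without 2) and 0.18 in the A226Y mice (rho -0.05, and -0.63 without 2). With the Kupffer cell marker sum, r was -0.45 in the A226Y mice (rho -0.52; -0.57 without 2) and -0.60 in the WT mice (rho -0.43; 0.36 without 2). In the WT mice *Hspb1* had r = 0.62 with the stellate cell marker sum (rho 0.71; 0.61 without 2) and -0.53 with the hepatocyte marker sum (rho -0.29; -0.47 without 2), and in the A226Y mice these were 0.35 and 0.28. Without the 3 mice with the highest lymphocyte sums, a choice made after seeing the data, the log2 fold change of *Hspb1* was 0.68 with a standard error of 0.21 (edgeR adjusted p = 0.0599). With the lymphocyte sum as a covariate, also chosen after seeing the data, it was 0.93 with a standard error of 0.22 (edgeR adjusted p = 0.0106). That fit used a common slope for both genotypes, although r was -0.96 in the WT and -0.14 in the A226Y mice. It therefore does not adjust for the relation within each genotype, and the other 7 markers were not used as a covariate. In bulk tissue, fewer cells of a type and less RNA per cell cannot be told apart.

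The stress-inducible HSP70 genes lie on chromosome 17 of GRCm38, *Hspa1b* (ENSMUSG00000090877) from 34956436 to 34959238 and *Hspa1a* (ENSMUSG00000091971) from 34969190 to 34972156, both on the minus strand. Their coding sequences of 1929 and 1926 bases differ at 8 aligned bases and 3 gap bases (99.4% identical), with an identical run of 638 bases, so the division of reads between them is uncertain. *Hspa1a* had between 1 and 13 counts per mouse, 122 in all, and made up 3.92% of the counts of the pair. *Hspa1b* ran from 1.97 CPM through a median of 3.98 to 17.7 in the A226Y mice, and from 1.64 through 3.63 to 9.55 in the WT mice. Both groups spread widely, with coefficients of variation of 85.5% and 64.9%, and they overlapped almost fully. Means were 5.63 ± 4.81 CPM (SD, n = 10) and 4.76 ± 3.09 CPM (SD, n = 8). The log2 fold change of *Hspa1b* was 0.24, with a standard error of 0.43 and an interval from -0.61 to 1.09 (edgeR adjusted p = 0.756). Without A226Y mouse 7 it was -0.15. The summed pair gave means of 5.81 ± 4.9 CPM in A226Y and 5.01 ± 3.24 CPM in WT mice.

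*Hspa8* (ENSMUSG00000015656, chromosome 9, 40800984 to 40810087, plus strand) encodes HSC70, the constitutive HSP70 that also uncoats clathrin vesicles and carries substrates to lysosomes. Its level ran from 157 CPM through 195 to 308 in the A226Y mice and from 170 through 187 to 219 in the WT mice. The groups overlapped, although 3 A226Y mice were above the highest WT mouse and 1 was below the lowest. Means were 205 ± 41.5 CPM (SD, n = 10) and 189 ± 17.2 CPM (SD, n = 8), a log2 fold change of 0.12 with an interval from -0.08 to 0.32 (edgeR adjusted p = 0.441). The coefficient of variation was 20.2% in the A226Y and 9.13% in the WT mice, and A226Y mouse 7 was the highest. Without it the log2 fold change of *Hspa8* was 0.04.

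*Hsph1* (ENSMUSG00000029657, chromosome 5, 149614287 to 149636376, minus strand) encodes HSP105, an HSP110 protein that exchanges the nucleotide of HSP70 and takes part in dissolving aggregates. It ran from 47.6 CPM through 61.3 to 140 in the A226Y mice and from 37.5 through 55.2 to 80.9 in the WT mice. Only mouse 7 exceeded the WT range, and the log2 fold change was 0.30 with a standard error of 0.19 and an interval from -0.08 to 0.67 (edgeR adjusted p = 0.313). Without that mouse it was 0.12.

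*Hsp90aa1* (ENSMUSG00000021270, chromosome 12, 110690605 to 110702728, minus strand), the inducible cytosolic HSP90, was the nearest of the other genes to the threshold. It ran from 25.7 CPM through 33.4 to 68.3 in the A226Y mice and from 19 through 30 to 40.8 in the WT mice. Of the 10 A226Y mice, 9 exceeded the mean of the WT group and 3 its highest mouse, while 3 WT mice were below the lowest A226Y mouse. Means were 37.5 ± 12.3 CPM (SD, n = 10) and 28.7 ± 7.97 CPM (SD, n = 8). The log2 fold change was 0.39 with a standard error of 0.18 and an interval from 0.03 to 0.74, the edgeR p was 0.0463 before and 0.16 after adjustment, and the two-sided exact permutation p was 0.0671. Without mouse 7, the log2 fold change was 0.25 (edgeR adjusted p = 0.297).

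Neither J-domain gene of the set was called. *Dnaja1* (ENSMUSG00000028410, chromosome 4, 40722150 to 40737149, plus strand), whose product folds clients with HSC70, ran from 74.6 CPM through 83.9 to 115 in the A226Y mice and from 66.3 through 79.8 to 93.5 in the WT mice. *Dnajb1* (ENSMUSG00000005483, chromosome 8, 83608193 to 83612653, plus strand), the partner of HSP70 that helps return HSF1 to its inactive state, ran from 25.5 CPM through 31.1 to 56.6 and from 26.4 through 34.3 to 42.7. The log2 fold changes were 0.10 for *Dnaja1*, with an interval from -0.07 to 0.26 (edgeR adjusted p = 0.469), and -0.03 for *Dnajb1*, with an interval from -0.29 to 0.22 (edgeR adjusted p = 0.893). Reads of *Dnaja1* may include those of *Smu1*, which overlaps it on the opposite strand, and its direction turned under a length offset (-0.01) and a GC offset (-0.02).

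*Bag3* (ENSMUSG00000030847, chromosome 7, 128523616 to 128546981, plus strand), which couples HSP70 and small heat shock proteins to selective autophagy, had means of 46.2 ± 12.6 CPM (SD, n = 10) and 51.3 ± 13.8 CPM (SD, n = 8) in the mutant and control mice. It ran from 31.6 CPM through 45.5 to 74 in the A226Y mice and from 27.1 through 51 to 69.2 in the WT mice, so that the groups covered nearly the same range. The log2 fold change was -0.15 with an interval from -0.48 to 0.18 (edgeR adjusted p = 0.589). HSF1 itself is regulated mostly as a protein, and its RNA varied little, with coefficients of variation of 9.42% and 10.2%. *Hsf1* (ENSMUSG00000022556, chromosome 15, 76477422 to 76501913, plus strand) ran from 11.4 CPM through 12.5 to 15.4 in the A226Y mice and from 11.5 through 13 to 15.5 in the WT mice, a log2 fold change of -0.04 with an interval from -0.18 to 0.09 (edgeR adjusted p = 0.714).

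**Figure D2:**
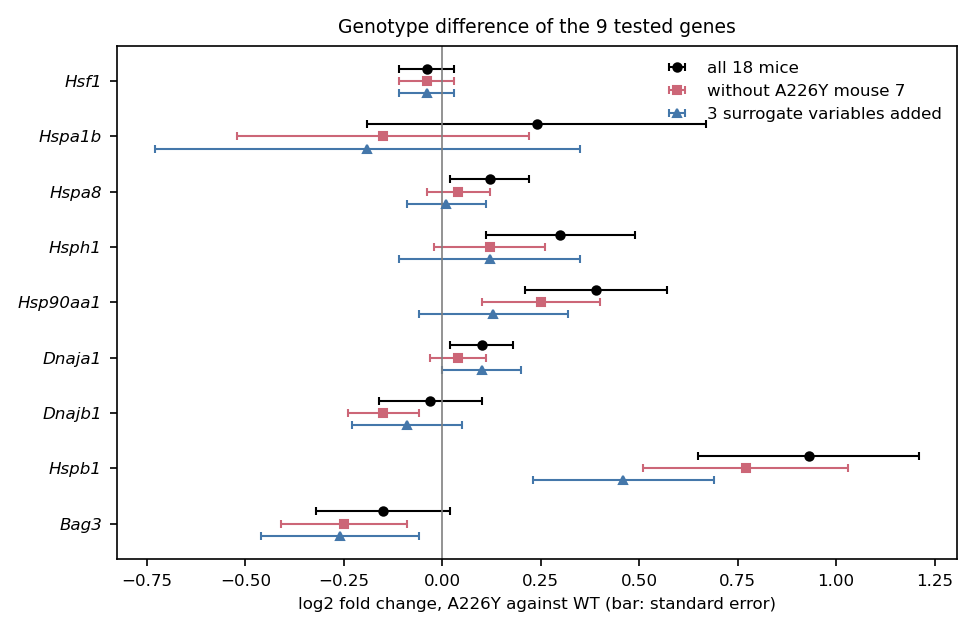
Log2 fold change of A226Y against WT (horizontal axis) with its standard error for the 9 tested genes, from all 18 mice, without A226Y mouse 7 and with 3 surrogate variables in the fit. *Hspb1* is the only gene far from 0 (0.93), and it lies at 0.77 and 0.46 in the other fits; *Hspa1b* moves from 0.24 to -0.15 and -0.19.

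Compared per transcript length, in RPKM, *Hspa8* was the most abundant of the set, at 85.8 ± 17.3 in A226Y (SD, n = 10) and 78.7 ± 7.19 in WT mice (SD, n = 8). In WT liver the order continued with *Bag3* at 20 ± 5.39 RPKM, *Dnaja1* at 14.5 ± 1.74, *Hsph1* at 11.8 ± 3.19, *Dnajb1* at 11.3 ± 1.8 and *Hsp90aa1* at 8.75 ± 2.43. It ended with *Hsf1* at 6.35 ± 0.645 RPKM, *Hspb1* at 5.28 ± 2.54, *Hspa1b* at 1.7 ± 1.1 and *Hspa1a* at 0.0835 ± 0.0558. The ranges of mean ± SD overlapped between all neighbours from *Bag3* down to *Hspa1b*, with *Hspa8* above and *Hspa1a* below them. The order was nearly the same in A226Y liver, except that *Hspb1* at 10.1 ± 3.86 RPKM stood above *Hsf1* at 6.16 ± 0.58 RPKM and *Hsp90aa1* at 11.4 ± 3.76 RPKM above *Dnajb1* at 11 ± 2.95. These levels use the principal transcript, and over the union of all exons *Hsf1* would be at 1.86 RPKM in WT mice. Reads shared with other copies add to this uncertainty, since 73.2% of the 50-base words of *Hspa8*, 58.9% of those of *Hspb1* and 58.5% of those of *Hsp90aa1* occur in pseudogenes or other genes.

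The genes of the set also varied between mice of the same genotype. After removal of each genotype's mean from log2 CPM, the 36 pairs of tested genes had a median Pearson r of 0.67 across the 18 mice, 34 of them were positive and 26 exceeded 0.5. Without the 2 mice farthest from the median, A226Y mouse 7 and WT mouse 21, the median was 0.50. Pairs among 1028 genes taken at regular steps through the tested genes had a median r of 0.00. The points share library, depth and scaling, and the values are a description.

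The 8 chaperone and co-chaperone genes varied together, and *Hsf1* less with them. Among the 8, r ran from 0.44 to 0.91 over 28 pairs with a median of 0.71, whereas *Hsf1* had a median r of 0.22 with them. The median of the 8 was 0.82 within the 10 A226Y mice and 0.64 within the 8 WT mice, and 0.60 over 17 mice without mouse 7. *Hsph1* and *Hsp90aa1* were the closest pair (r = 0.91, rho = 0.92, and 0.86 without the 2 farthest mice). *Hspb1* was closest to *Hsp90aa1* (r = 0.75, rho = 0.76, and 0.66 without the 2 mice). *Dnaja1* had the lowest values among the 28 pairs, 0.44 with *Hspb1* and 0.48 with *Hspa8*, and the latter became -0.07 without the 2 mice.

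**Figure D3:**
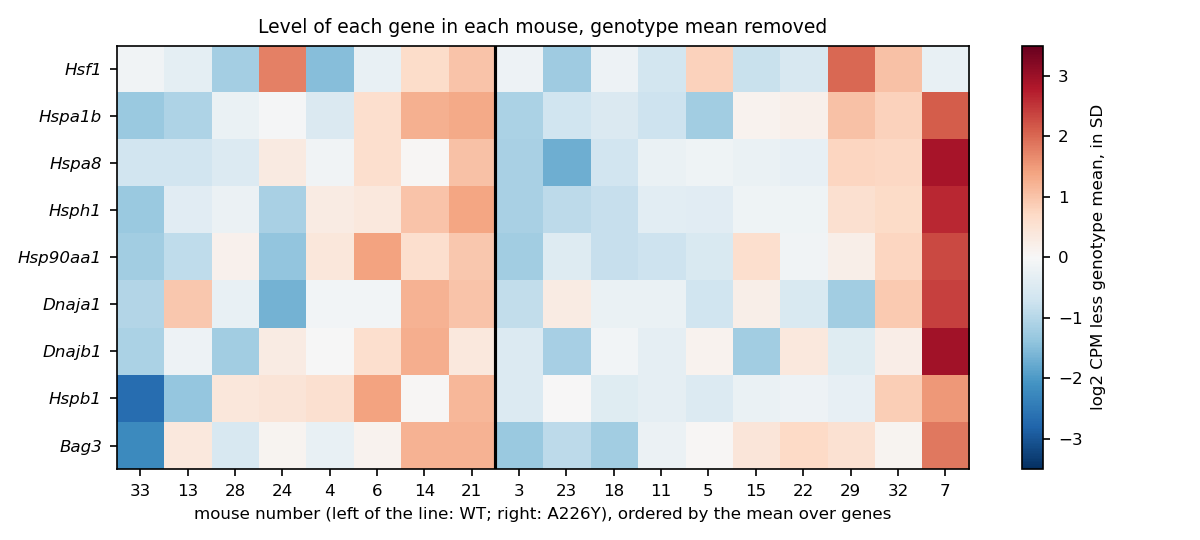
Level of the 9 tested genes (rows) in each mouse (columns, WT left and A226Y right, ordered by the mean over genes), as log2 CPM less the genotype mean in units of the SD. WT mouse 33 is low and A226Y mouse 7 high for most rows, and *Hsf1* does not follow the order.

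A226Y mouse 7 was the highest of all 18 mice for 8 of the genes: 308 CPM of *Hspa8*, 140 of *Hsph1*, 115 of *Dnaja1*, 74 of *Bag3*, 68.3 of *Hsp90aa1*, 56.6 of *Dnajb1*, and 17.7 each of *Hspa1b* and *Hspb1*. The summed level of the set was 810 CPM in this mouse and 563 CPM in the next, WT mouse 21. Its *Hsf1* was 12.5 CPM, in the middle of the range. WT mouse 33 was at the other end, with the lowest sum (369 CPM) and the lowest *Hspa1b*, *Hspb1*, *Hsph1* and *Bag3*. The total counts of mice 7 and 33 were 30659382 and 31991701, within the range of the others. In WT mouse 33 the 10 highest genes held 25.1% of the counts, against 18.6% to 22.4% in the other mice. After removal of the genotype means, the mean standardized level of the set had r = -0.43 with that share across the 18 mice (rho = -0.42, and -0.32 without 2). In this paragraph the 2 mice left out are those farthest from the median of the other measure, which need not include mouse 7. The r of the set was -0.29 with the total count (rho = -0.25), -0.29 with the number of genes detected (rho = -0.42) and 0.28 with *Rps2* (rho = 0.16). These are among 138 relations computed, for the set and for *Hspb1* with 23 measures, and others were stronger within 1 genotype. The cholangiocyte marker sum had r = -0.89 with the set in the 10 A226Y mice (rho = -0.78, and -0.71 without 2) and 0.40 in the 8 WT mice. For the hepatocyte marker sum, r was -0.05 in the A226Y and -0.68 in the WT mice (rho = -0.73, and -0.97 without 2). The stellate cell marker sum had r = 0.43 over the 18 mice (rho = 0.34), and the third surrogate variable had rho = 0.93 in the A226Y mice (r = 0.56) and 0.01 in the WT mice. Whether these measures, or handling, feeding or temperature of single animals had a part in this spread was not tested.

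**Figure D4:**
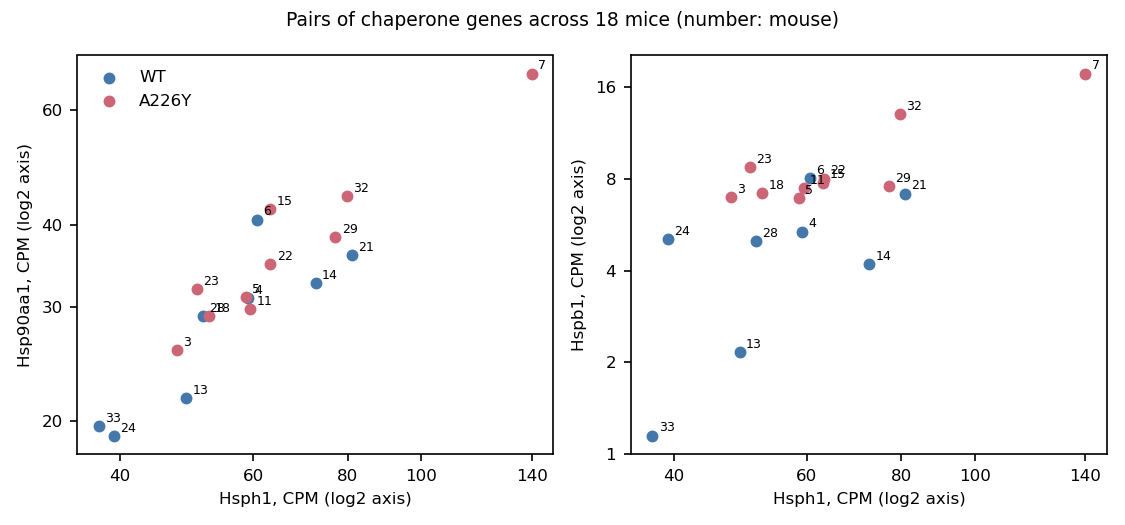
*Hsp90aa1* (left) and *Hspb1* (right) against *Hsph1* in CPM on log2 axes, 1 numbered point per mouse, WT and A226Y in separate colours. *Hsp90aa1* follows *Hsph1* in both genotypes (r = 0.91 with genotype means removed). In the *Hspb1* panel, A226Y mice 3, 18, 23, 29 and 32 lie above the WT mice of like *Hsph1*. A226Y mice 5, 11, 15 and 22 lie above WT mouse 4 but below WT mouse 6, and A226Y mouse 7 has no WT mouse of like *Hsph1*.

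Since *Hspb1* and *Hsp90aa1* varied with the rest of the set, their genotype difference was also fitted with the mean standardized level of *Hspa1b*, *Hspa8*, *Hsph1*, *Dnaja1*, *Dnajb1* and *Bag3* as a covariate, a choice made after seeing the data. The log2 fold change of *Hspb1* was then 0.83 with a standard error of 0.21 (edgeR adjusted p = 0.0158). That of *Hsp90aa1* was 0.28 with a standard error of 0.10 (edgeR p = 0.0105, adjusted 0.0662). Without the covariate, the log2 fold change of *Hspb1* was 0.93. The covariate was taken from the same mice and may itself differ by genotype, and this fit was not repeated with single mice left out. Whether the difference in *Hspb1* is separate from the shared level was not tested.

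The 8 genes outside the set whose pattern was most like its mean level across the 18 mice, genotype means removed, were *Prss53* (r = 0.85, rho = 0.88), *B4galt7* (r = 0.84, rho = 0.81), *Ahsa1* (r = 0.83, rho = 0.82), *Cct7* (r = 0.82, rho = 0.71), *P4ha1* (r = 0.81, rho = 0.73), *Tbl2* (r = 0.80, rho = 0.73), *Nt5dc3* (r = 0.79, rho = 0.87) and *Stip1* (r = 0.78, rho = 0.70). *Ahsa1* encodes an activator of the HSP90 ATPase, *Stip1* the adaptor that joins HSP70 and HSP90, and *Cct7* a subunit of the CCT chaperonin. None of the 8 was called between genotypes, and *B4galt7* had the lowest edgeR adjusted p among them (0.0778). Without the 2 farthest mice r stayed between 0.55 (*P4ha1*) and 0.86 (*Prss53*).

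The wider heat shock response was represented by 31 tested genes, among them *Hsp90ab1*, co-chaperones and ubiquitin genes. Of these, 2 were called higher and 2 lower in A226Y liver, and the list had a median log2 fold change of 0.08. These 4 are 12.9% of the list, beside 14.3% of all tested genes called in either direction. The count was 2 with library size only, without the filter, with surrogate variables and with the length offset, and 1 when A226Y mouse 11 or 32 or WT mouse 14, 21 or 24 was left out. *Dnaja4*, a J-domain gene, rose from 6.07 ± 1.35 CPM (SD, n = 8) to 10.4 ± 2.45 CPM (SD, n = 10), a log2 fold change of 0.77 (edgeR adjusted p = 0.00389), and *Dnaja2*, which serves HSC70, rose by 0.18 (edgeR adjusted p = 0.0326). *Serpinh1*, the collagen chaperone of the ER, fell by 0.36 on the log2 scale (edgeR adjusted p = 0.0373), and *Fkbp4*, an HSP90 partner in steroid receptor complexes, fell by 0.27 (edgeR adjusted p = 0.0418). Of the 31 genes, 14 (45.2%) had r over 0.5 with the mean level of the set across mice, against 3.5% of all other tested genes, and the median r was 0.46. The share was 27.8% for the ER folding genes, 25% for the CCT subunits, 16.7% for the exchange factors and 8.33% for the mitochondrial genes described below. Without the 2 farthest mice, *Ahsa1* kept r = 0.80, whereas *Dnajb4* went from 0.70 to 0.36.

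Among 16 tested genes of the HSF family and of HSF1 regulators, 5 were called higher and 2 lower, and the list had a median log2 fold change of 0.14. That is 43.8% of the list called, beside 14.3% of all tested genes in either direction, and 56.2% had an unadjusted p under 0.05, beside 29.6%. The 7 calls of this list fell to 1 with surrogate variables or with the length offset, to 3 with the GC offset, and the length offset gave a median of 0.041. *Hsbp1l1*, a paralogue of the HSF binding protein gene, was higher by 0.87 at a level under 1 CPM (edgeR adjusted p = 0.0481). *Sirt1*, whose product deacetylates HSF1, was higher by 0.28 (edgeR adjusted p = 0.00866), and the kinase gene *Gsk3b* by 0.26 (edgeR adjusted p = 0.002). The other two, named after their values were seen, were the kinase genes *Mapk8* and *Prkaa1*, each at 0.21. DESeq2 called the same 7 genes, whereas limma-voom did not call *Hsbp1l1* and *Mapk8*. *Hsbp1*, which encodes the HSF binding protein, fell by 0.20 on the log2 scale (edgeR adjusted p = 0.0218), and the elongation factor gene *Eef1a1* fell by 0.25 (edgeR adjusted p = 0.0234). Across mice, the r of the 16 genes with the mean level of the set ran from -0.44 (*Mapk8*, rho = -0.59) to 0.29 (*Hsbp1*), with a median of -0.09.

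Of 12 tested BAG and other HSP70 exchange factors, *Bag4* was called higher (0.39, edgeR adjusted p = 0.0134) and *Sil1*, the exchange factor of the ER HSP70, fell by 0.23 on the log2 scale (edgeR adjusted p = 0.00387), with a median of 0.11. These are 16.7% of the list, and 41.7% had an unadjusted p under 0.05, beside 14.3% and 29.6% of all tested genes in either direction. Chaperones of other compartments were compared in the same way. Of 18 ER folding genes, 3 were called higher: *Dnajb11* at 0.41, *Dnajc10* at 0.28 and *Dnajc3* at 0.23 on the log2 scale (median of the list 0.19). None was called lower, and 4 of the 18 (22.2%) had an unadjusted p under 0.05, beside 29.6% of all tested genes in either direction. The count called was 1 with surrogate variables or either offset. Of 12 mitochondrial chaperone and protease genes, *Trap1* fell by 0.29, and none was called higher (median 0.00, with 4, or 33.3%, at an unadjusted p under 0.05 and *Trap1* alone called by DESeq2). In either direction, 2 of these genes were called with surrogate variables and without WT mouse 6 or 33 or A226Y mouse 29. Of the 8 CCT subunits, *Cct6a* was called higher at 0.20 and *Cct4* fell by 0.22, which is 25% of the list, and 50% had an unadjusted p under 0.05. The count was 1 or 0 in 14 of the 18 fits that left out 1 mouse, and 0 with surrogate variables, with the length offset and without the filter.

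**Figure D5:**
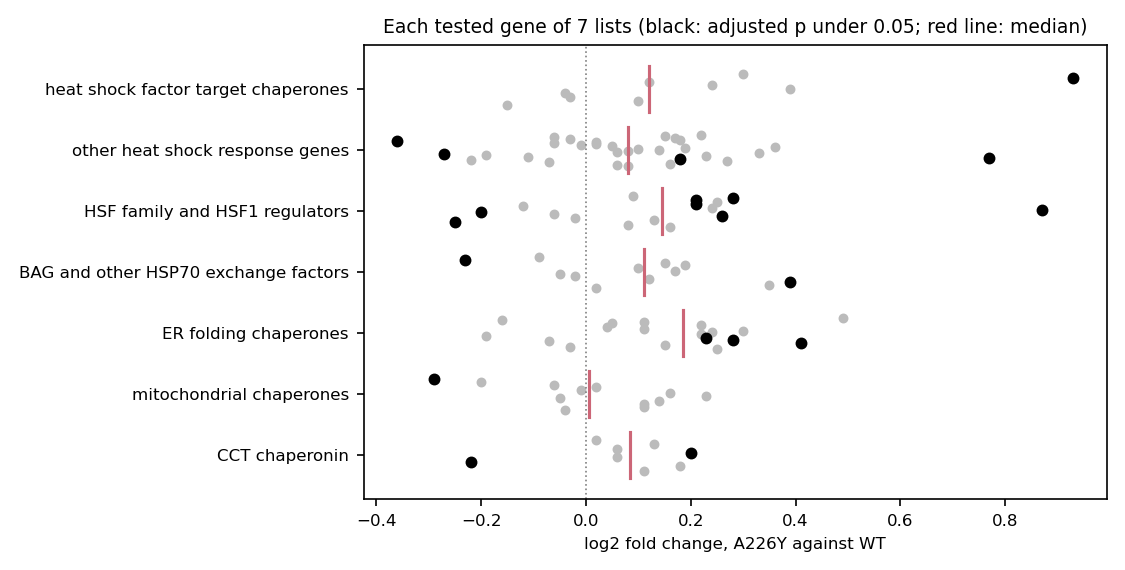
Log2 fold change of A226Y against WT (horizontal axis) of every tested gene in 7 lists, 1 point per gene, with called genes in black and the median of each list as a red line. The medians lie between 0.00 and 0.19, and *Hspb1* at 0.93 is the point farthest to the right.

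*Rps2* itself ran from 46.9 CPM through 72.5 to 83 in the A226Y mice and from 104 through 109 to 143 in the WT mice, without overlap, and its log2 fold change was -0.73 (edgeR adjusted p = 0.000772). All 10 hepatocyte markers were tested and their sum was 82198 to 160141 CPM in A226Y and 102061 to 183140 CPM in WT mice, with *Alb* at a mean of 96061 and 90853 CPM. *Tat* (0.85) and *Cps1* (0.55) were called higher, and *Apoa2* fell by 0.31. Total counts ran from 23850565 to 62126131 per mouse.

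Markers of other cells were summed beside these results, and their part in them was not tested beyond the fits given for *Hspb1*. Of 9 Kupffer cell and macrophage markers, *Clec4f* fell by 0.65 on the log2 scale and 8 had a log2 fold change below 0, with sums of 339 to 1263 CPM in A226Y (median 457) and 504 to 1044 CPM in WT mice (median 725). The count called was 6 without A226Y mouse 29, which had the highest sum, and 0 without WT mouse 14. Of 8 stellate cell markers, *Col1a1* fell by 0.77 and *Col3a1* by 0.60, while *Rgs5* (0.23) and *Dcn* (0.18) were among the 4 with a log2 fold change above 0, and DESeq2 also called *Dcn* higher. Their sums were 364 to 437 CPM in A226Y (median 412) and 349 to 428 CPM in WT mice (median 365). None of 9 lymphocyte, 8 sinusoidal endothelial and 5 tested cholangiocyte markers was called by edgeR after TMM scaling with all mice. Of these, 0, 3 and 1 had an unadjusted p under 0.05, and DESeq2 called 0, 1 and 0. In other edgeR fits, 1 endothelial marker was called with library size only and without WT mouse 6 or A226Y mouse 7 or 29. Leaving out A226Y mouse 29 also gave 1 lymphocyte marker called. All 9 lymphocyte markers had a log2 fold change of -0.16 or below, with a median of -0.41. Their sums, however, had medians of 78.8 CPM in A226Y and 68.8 CPM in WT mice, with WT mice 33 (734 CPM) and 13 (384 CPM) highest of all. Endothelial sums were 326 to 460 CPM in A226Y and 322 to 418 CPM in WT mice, and cholangiocyte sums 13.3 to 29.9 and 12.1 to 25.9 CPM. The 1 tested pancreas marker, *Cela2a*, had a log2 fold change of -0.16 (edgeR p = 0.385, not called by DESeq2 either), and *Cpa1*, *Pnlip* and *Cel* were at 0 in every WT mouse. The sum of the pancreas markers was 4.88 CPM in A226Y mouse 29 and 0.776 to 1.99 CPM in the other mice, and *Ctrb1* reached 89 counts.

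Genes that report on handling, time of day or temperature were listed as well. None of 18 immediate-early genes was called by edgeR, with 2 at an unadjusted p under 0.05 and 1 called by DESeq2, and their median r with the set across mice was 0.09. Of 15 clock genes, *Clock* was higher by 0.61 and *Bhlhe40* fell by 0.37, and the median r with the set was -0.18, with *Cry2* lowest at -0.66. The cold-inducible genes *Rbm3* and *Cirbp* were at 0.46 and 0.33 on the log2 scale, neither called by edgeR after TMM scaling with all mice (1 at an unadjusted p under 0.05). DESeq2 and limma-voom called *Rbm3*, and edgeR called 1 of the genes with library size only and without A226Y mouse 5 or WT mouse 6 or 33. The r with the set was -0.08 for *Rbm3* and -0.57 for *Cirbp* (-0.35 without the 2 farthest mice). The part of handling, time of day or temperature in the levels of the chaperone genes was not tested.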

How the data were processed

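Liver RNA of 10 A226Y and 8 WT mice was compared, 1 library per mouse. The authors deposited raw counts of reads per Ensembl gene, whole numbers without normalization. The submitters' processing notes name fastp, STAR, featureCounts and GRCm38, whereas the methods text names RSEM, and which of these gave the deposited counts, and whether strand was used, is not given in the sources used here. Symbols and positions came from GENCODE M21 (GRCm38), which held 22214 of the 22524 identifiers. As in the methods, a gene needed 10 counts in 50% or more of either genotype's mice, which 13353 genes reached. They were tested with edgeR 4.0.16 (R 4.3.3) by quasi-likelihood after TMM scaling, without covariates, and called at a Benjamini-Hochberg adjusted p under 0.05. CPM uses TMM library sizes, log2 CPM a prior count of 2. With total counts of at least 23850565 and a biological coefficient of variation of 19.4%, the spread between mice sets the precision except for *Hspa1a*. All mice of a genotype differed by more than sampling noise (chi-square per degree of freedom at least 16.49). The labels do not say whether animals were littermates.

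The 10 genes and the gene lists were chosen with earlier results of these data known. Named beside them are *Rps2*, from each list the called genes (at most 3 with the largest log2 fold change in each direction), and the 8 other genes most correlated with the mean standardized level of the 9 tested genes. Lists covered other heat shock response genes, HSF regulators, exchange factors, ER, mitochondrial and CCT chaperones, immediate-early, clock and cold-inducible genes, and markers of hepatocytes, Kupffer cells, sinusoidal endothelium, stellate cells, cholangiocytes, lymphocytes and pancreas. Shared sequence was measured as 50-base words of the principal transcript found in other transcripts, and promoters were read from a RefSeq table on GRCm38.p6. Alternatives used other scalings and filters, DESeq2 1.42.0, limma-voom (limma 3.58.1), a robust fit, surrogate variables from sva 3.50.0, length and GC offsets, the summed *Hspa1* pair, and leaving out each mouse. Procedures were tested on simulated counts. The *Rps2*-loxP mice and protein measurements of the study were not analysed here. A result that the naming rule covers is not reported here.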

Additional observations from a re-analysis of the deposited data

Results flagged for a closer look

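In the A226Y group, mouse 7 lay apart from the other 9 mice for 2 genes by Dixon's gap ratio, the distance to the nearest mouse divided by the range of the group, taken on log2 CPM. For *Hsph1* the ratio was 0.520, with mouse 7 at 140 CPM, and for *Dnajb1* it was 0.612, with mouse 7 at 56.6 CPM, both above the critical value of 0.466 for 10 samples. On the linear CPM scale the ratios were 0.651 and 0.703, and *Hspa1b* (0.572), *Hspa8* (0.548), *Hsp90aa1* (0.563) and *Dnaja1* (0.467) also exceeded the critical value through mouse 7, so that 6 of the groups did. Each of the 9 tested genes was examined in both genotypes, 18 groups in all, and chance flags about 1 in 20 groups. Since the genes vary together across mice, these results come from 1 animal and are not independent.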

How the results depend on the processing

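Of the 9 tested genes, *Hspb1* alone was called by any alternative, and the other 8 were not called in any of the 265 combinations of gene and alternative (lowest adjusted p 0.0662). *Hspb1* lost its call with surrogate variables (0.46, adjusted p = 0.226) and without the 3 mice of highest lymphocyte sums (0.683), which left 0 genes of the set called higher. Leaving out 1 mouse gave *Hspb1* log2 fold changes of 0.774 to 1.075 with edgeR adjusted p-values of 0.0132 to 0.0616, and 0 to 1 genes of the set called higher. At an unadjusted p under 0.05 the count was 2. Directions turned for *Hsf1* with library size only (0.001), for *Hspa1b* with surrogate variables (-0.193) and without A226Y mouse 7 (-0.150), for *Dnaja1* with a length offset (-0.005) and a GC offset (-0.019), and for *Dnajb1* with library size only (0.002), without WT mouse 14 (0.021), and without A226Y mouse 15 or 23 (0.003 each). With 1 mouse left out, *Hspa1b* ran from -0.150 to 0.466 and *Dnajb1* from -0.151 to 0.021. No scaling moved the median of all genes by over 0.1.

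Over all genes, 971 were called higher and 939 lower. The counts were 298 and 458 with surrogate variables, and 462 and 460 without the 3 mice. The length offset gave 385 higher and 977 lower, the GC offset 402 and 998, and library size only 1399 and 660. Leaving out 1 mouse gave 633 to 1268 higher and 622 to 1372 lower, lowest without WT mouse 14 (633 and 622), with 641 higher without WT mouse 24. Of the other heat shock genes, 2 were called instead of 4 with library size only, without the filter, with surrogate variables and with the length offset, and 1 to 5 with 1 mouse left out, with a count of 1 without A226Y mouse 11 or 32 or WT mouse 14, 21 or 24, and of 2 without A226Y mouse 3, 7, 22 or 23 or WT mouse 13. Of the HSF regulators, 1 was called instead of 7 with surrogate variables or the length offset, 3 with the GC offset, and 4 to 8 with 1 mouse left out, with a count of 4 without A226Y mouse 7 or 11 or WT mouse 4, 13 or 14. Of the exchange factors, 1 was called instead of 2 with either offset, and 2 to 3 with 1 mouse left out. Of the CCT subunits, 0 were called instead of 2 without the filter, with surrogate variables, with the length offset, and without A226Y mouse 7, 11, 15 or 32 or WT mouse 13, 14, 21 or 24, and 1 with library size only, with the GC offset, and without A226Y mouse 18, 22 or 23 or WT mouse 4, 28 or 33. Of the ER genes, 1 was called instead of 3 with surrogate variables or either offset. Of the Kupffer cell markers, 2 were called instead of 1 with DESeq2, with the GC offset and without WT mouse 24, 3 without A226Y mouse 5 or WT mouse 6, 6 without A226Y mouse 29 and 0 without WT mouse 14. Of the hepatocyte markers, 5 were called instead of 3 with DESeq2, and 1 with surrogate variables, the length offset, and without A226Y mouse 7 or 32 or WT mouse 14, 21 or 24. Of the stellate cell markers, 0 were called instead of 2 with surrogate variables. The causes were not tested. No paired analysis was possible because the mouse numbers differ between the genotypes.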
